A study of Mus musculus with 15 samples.

Results

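The genes described are 10 that act in adipogenesis and in the handling of fatty acids: the transcription factors Pparg, Cebpa, Cebpb and Zfp423, the lipid uptake genes Lpl and Cd36, the fatty acid binding proteins Fabp4 and Fabp7, and the adipocyte products Adipoq and Plin1. They were chosen by name. Each was represented by 1 row of the array table, and they make up 10 of the 18718 genes that were tested. They were followed across 5 populations of PDGFRβ+ mesenchymal cells sorted from C57BL/6 mice aged 2 weeks.

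From thymus, a PDPN+BP3- and a PDPN- population had been sorted, and from pooled inguinal, brachial and axillary lymph nodes a PDPN+BP3+, a PDPN+BP3- and a PDPN- population. Both PDPN- populations were sorted as Ly51+ as well. PDPN is podoplanin, BP3 is encoded by Bst1 and Ly51 by Enpep. Every population was measured on 3 arrays (n = 3), each from its own experiment and pool of mice, 3 mice a pool for thymus and 10 to 11 for lymph node, so that pool size and tissue cannot be told apart. The arrays carry RNA of sorted cells in bulk, so fewer cells of a type and less RNA per cell cannot be told apart either.

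PPARγ, the product of Pparg, is a nuclear receptor that binds DNA together with a retinoid X receptor and drives the program of fat cells. C/EBPβ acts early in adipogenesis and C/EBPα later, and C/EBPα and PPARγ maintain each other in fat cells. Lipoprotein lipase, encoded by Lpl, releases fatty acids from lipoproteins at the vessel wall, CD36 takes them up at the cell surface, and the fatty acid binding proteins carry them inside the cell. Pparg, Cd36 and Fabp4 are not limited to fat cells: endothelium and macrophages are known to express them too.

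The promoters of Pparg, Cd36 and Fabp7 are shown because Pparg and Cd36 had their highest signal in the same populations while Fabp7 had its highest signal in another. They and the motifs were chosen after the values and the sequences had been seen. Each stretch is the 250 bases before a start, on the gene's own strand, from RefSeq with coordinates of GRCm38.p6: chr6:115421816-115422065 on the plus strand for Pparg (the most downstream of its 3 starts in the table), chr5:17835897-17836146 on the minus strand for Cd36 and chr10:57784673-57784922 on the plus strand for Fabp7. Capitals mark AGGTCA, the half-site of nuclear receptors, CCAAT, the box bound by NF-Y, and TATAAA, on either strand.
Pparg: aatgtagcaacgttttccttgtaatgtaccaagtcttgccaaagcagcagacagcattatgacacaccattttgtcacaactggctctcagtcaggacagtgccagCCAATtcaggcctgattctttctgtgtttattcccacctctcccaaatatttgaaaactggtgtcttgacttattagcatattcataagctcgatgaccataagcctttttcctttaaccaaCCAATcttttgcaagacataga
Cd36: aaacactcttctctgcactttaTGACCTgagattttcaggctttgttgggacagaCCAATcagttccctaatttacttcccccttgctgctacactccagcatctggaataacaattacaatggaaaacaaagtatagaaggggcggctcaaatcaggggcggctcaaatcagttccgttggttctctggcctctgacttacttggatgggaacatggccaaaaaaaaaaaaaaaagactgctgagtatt
Fabp7: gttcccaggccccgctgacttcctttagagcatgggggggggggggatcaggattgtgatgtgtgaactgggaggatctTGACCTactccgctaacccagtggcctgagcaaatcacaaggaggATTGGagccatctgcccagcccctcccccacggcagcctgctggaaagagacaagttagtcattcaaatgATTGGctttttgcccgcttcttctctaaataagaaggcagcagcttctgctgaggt

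In these windows the promoter at the most downstream Pparg start had CCAAT at 144 and 22 bases before the start and no half-site. Motifs at the other Pparg starts are not listed, and which start gave the array signal was not tested. The Cd36 promoter had the half-site, as TGACCT, at 228 bases and CCAAT at 195 bases before the start. The Fabp7 promoter had TGACCT at 171 bases and CCAAT on the opposite strand at 126 and 56 bases before the start. TATAAA was in none of these 3 windows. Of the 32851 promoters of the same length in the table, 14.0% held the half-site, 33.8% CCAAT and 12.4% TATAAA, and a match of letters is a description and no site. Of the 10 genes, 8 were matched in the promoter table. Fabp4 and Lpl were not.

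Values are RMA signals on a log2 scale, over a table whose median was 3.8. A signal below that median need not stand above background, and a log2 difference of signals is not taken as a ratio of RNA. The genes of the 4 sort antigens lay on the labelled side. Pdpn averaged 8.16 to 9.11 in the PDPN+ populations and 3.01 to 3.41 in the PDPN- populations, and Bst1 averaged 8.74 in the PDPN+BP3+ cells and 2.18 to 3.30 in the others. Thymus PDPN+BP3- replicate 1 stood apart, its median being 3.58 and that of the 14 others 3.77 to 3.885.

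**Figure D1:**
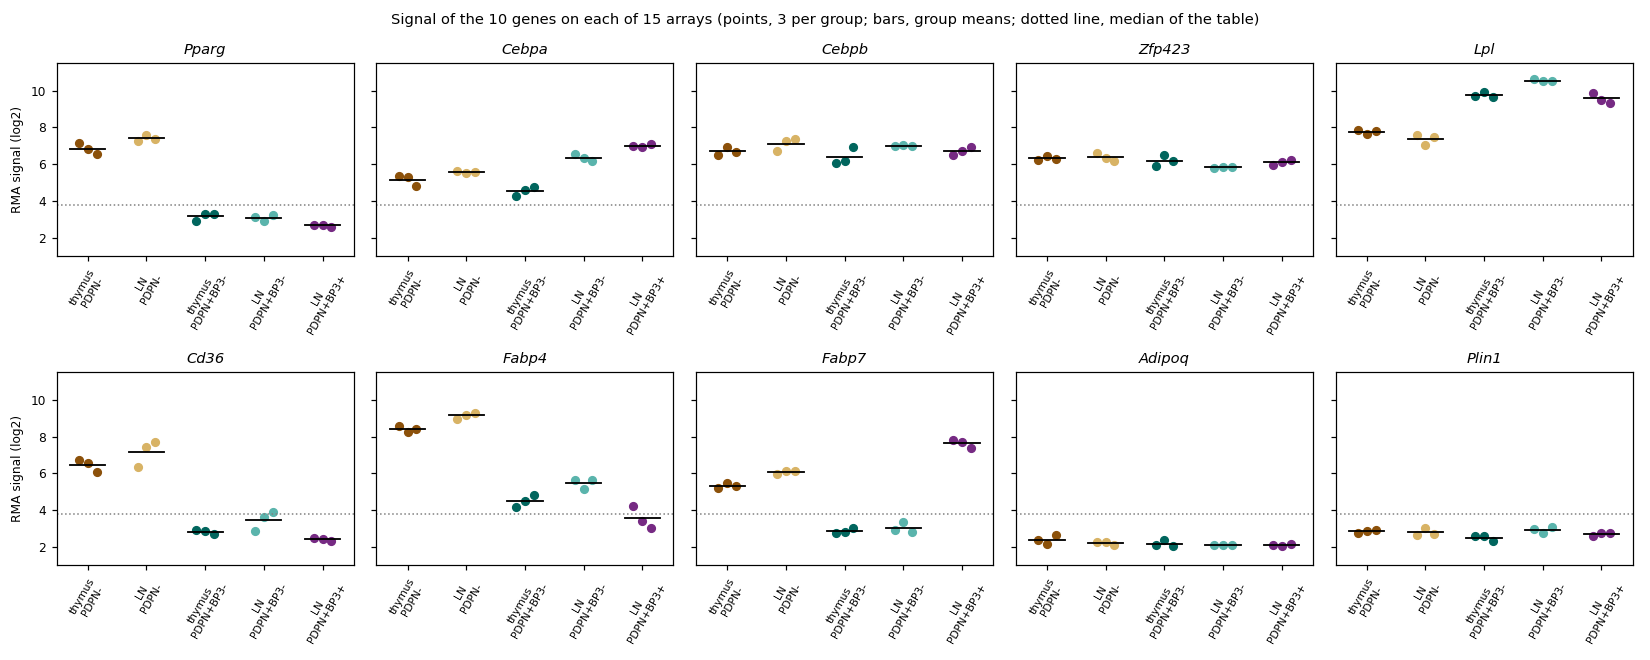
RMA signal (log2, vertical axis) of the 10 genes on each of 15 arrays, with 1 point per array, a bar at the mean of each of the 5 populations and a dotted line at the table median of 3.8. Pparg, Cd36 and Fabp4 are highest in the PDPN- populations, Lpl is lowest there, Fabp7 is highest in lymph node PDPN+BP3+ cells, and Adipoq and Plin1 stay below the dotted line on every array.

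Pparg was high in both PDPN- populations and low in the 3 PDPN+ populations. Its signal on the 3 arrays was 7.27, 7.59 and 7.39 in lymph node PDPN- cells and 7.13, 6.83 and 6.58 in thymus PDPN- cells. In the PDPN+BP3- cells it was 2.93, 3.27 and 3.28 in thymus and 3.14, 2.90 and 3.25 in lymph node, and in lymph node PDPN+BP3+ cells it was 2.72, 2.69 and 2.60. All 6 PDPN- arrays thus lay well above the table median and all 9 PDPN+ arrays below it. Pparg fell by 3.69 ± 0.15 (SE) from PDPN- to PDPN+BP3- cells in thymus (limma, adjusted p = 1.04e-11). It fell by 4.32 ± 0.15 between these subsets in lymph node (adjusted p = 3.11e-12), and by 4.75 ± 0.15 from lymph node PDPN- to PDPN+BP3+ cells (adjusted p = 6.48e-13).

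The order of the Pparg means was lymph node PDPN-, thymus PDPN-, thymus PDPN+BP3-, lymph node PDPN+BP3- and lymph node PDPN+BP3+. The PDPN- cells of lymph node were 0.57 ± 0.15 higher than those of thymus (adjusted p = 0.0211). That call ended when the fit held only the arrays of these 2 groups (adjusted p = 0.056) and without thymus PDPN- replicate 2 (0.0674) or 3 (0.114) or lymph node PDPN- replicate 2 (0.1) or 3 (0.0511). The PDPN+BP3- populations of the tissues overlapped (adjusted p = 0.84). The lymph node PDPN+BP3+ arrays lay below those of PDPN+BP3- cells, at a difference of -0.43 ± 0.15 that missed the threshold (adjusted p = 0.0643) but passed it under median centring (0.035), quantile normalization (0.0465) and the fit of these 2 groups alone (0.0256), as it did without lymph node PDPN+BP3- replicate 2 (0.0434).

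Cebpa did not follow Pparg. Its signal was highest in lymph node PDPN+BP3+ cells, at 6.97, 6.95 and 7.09, followed by lymph node PDPN+BP3- cells at 6.53, 6.35 and 6.16. Lymph node PDPN- cells had 5.61, 5.53 and 5.59, thymus PDPN- cells 5.35, 5.31 and 4.79, and thymus PDPN+BP3- cells 4.29, 4.58 and 4.77. No neighbouring populations in this order overlapped, and those PDPN- cells that were highest in Pparg stood in the middle of the order for Cebpa.

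In lymph node, Cebpa of PDPN+BP3- cells exceeded that of PDPN- cells by 0.77 ± 0.15 (adjusted p = 0.00126), and Cebpa of PDPN+BP3+ cells exceeded it by 1.43 ± 0.15 (adjusted p = 2.17e-06). PDPN+BP3+ exceeded PDPN+BP3- cells by 0.66 ± 0.15 (adjusted p = 0.00618). In thymus the direction was the opposite: Cebpa fell by 0.60 ± 0.15 from PDPN- to PDPN+BP3- cells (adjusted p = 0.00706). The difference between the PDPN- cells of lymph node and thymus, 0.43 ± 0.15, missed the threshold (adjusted p = 0.104) and passed it after quantile normalization (0.018).

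Cebpb and Zfp423 varied little. Cebpb, which encodes the early C/EBP factor, ranged from 6.06 to 7.35 over the 15 arrays, and its population means spanned 0.74. It passed the threshold in no comparison; the nearest was lymph node against thymus PDPN+BP3- cells, where the arrays did not overlap (6.97, 7.07 and 6.97 against 6.06, 6.16 and 6.92) and the difference was 0.62 ± 0.21 (adjusted p = 0.0529). This difference passed under the trended robust fit (0.0336), the filter on low values (0.0306) and the block on replicate number (0.0201). Thymus PDPN+BP3- replicate 3 was the high array of its population: without it Cebpb passed in this comparison (0.89, adjusted p = 0.00291) and between the thymus subsets (-0.59, adjusted p = 0.023, against -0.32 ± 0.21 and 0.294 with it). Zfp423, a zinc finger factor of committed preadipocytes, ranged from 5.81 to 6.59, and its means spanned 0.54. It was lower in lymph node PDPN+BP3- cells than in lymph node PDPN- cells, at -0.54 ± 0.14 (adjusted p = 0.0107), a call that ended without lymph node PDPN- replicate 1 (-0.44, adjusted p = 0.0525). Against the same PDPN- cells, Zfp423 of PDPN+BP3+ cells differed by -0.27 ± 0.14 (adjusted p = 0.2) and passed under median centring (0.0424) and quantile normalization (0.0218).

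Among the genes of lipid uptake, Lpl and Cd36 went in opposite directions. Lpl had the signals 10.64, 10.51 and 10.50 in PDPN+BP3- cells from lymph node, 9.71, 9.92 and 9.67 in those from thymus and 9.88, 9.51 and 9.35 in PDPN+BP3+ cells. The PDPN- cells had 7.88, 7.62 and 7.80 in thymus and 7.59, 7.04 and 7.47 in lymph node. Every PDPN+ array was above every PDPN- array, and of the neighbours in the order only thymus PDPN+BP3- and lymph node PDPN+BP3+ cells overlapped. In thymus, Lpl of PDPN+BP3- cells exceeded that of PDPN- cells by 2.00 ± 0.15 (adjusted p = 3.12e-08). The corresponding difference in lymph node was 3.18 ± 0.15 (adjusted p = 1.5e-10), and PDPN+BP3+ cells were 2.21 ± 0.15 above PDPN- cells (adjusted p = 1.08e-08). Between the PDPN+ populations of lymph node, Lpl was lower in PDPN+BP3+ than in PDPN+BP3- cells, by -0.97 ± 0.15 (adjusted p = 0.000218).

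Cd36 signal was 6.35, 7.43 and 7.73 in lymph node PDPN- cells and 6.72, 6.54 and 6.05 in thymus PDPN- cells. Lymph node PDPN+BP3- cells had 2.86, 3.63 and 3.92, thymus PDPN+BP3- cells 2.94, 2.87 and 2.69, and lymph node PDPN+BP3+ cells 2.50, 2.45 and 2.34. Both PDPN- populations overlapped each other and lay above all PDPN+ arrays; within the PDPN+ arrays only lymph node PDPN+BP3- replicate 3 exceeded the table median. Cd36 fell by 3.60 ± 0.30 from PDPN- to PDPN+BP3- cells in thymus (adjusted p = 8.19e-08), and it fell by 3.70 ± 0.30 in lymph node (adjusted p = 7.96e-08). It fell by 4.74 ± 0.30 from lymph node PDPN- to PDPN+BP3+ cells (adjusted p = 3.35e-09).

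The lower Cd36 signal of PDPN+BP3+ than of PDPN+BP3- cells in lymph node, -1.04 ± 0.30 (adjusted p = 0.0245), did not hold up to leaving out arrays. The adjusted p was 0.0569, 0.0683 and 0.0755 without PDPN+BP3+ replicates 1, 2 and 3, and 0.0857 and 0.129 without PDPN+BP3- replicates 2 and 3. The SD of Cd36 was 0.73 in lymph node PDPN- cells, the largest of the 10 genes in any population, and 0.55 in lymph node PDPN+BP3- cells. Over replicates 1, 2 and 3 the mean signal of 12 endothelial marker genes was 3.59, 3.45 and 3.11 in the former and 4.24, 3.92 and 4.18 in the latter; their part in the Cd36 signal was not tested. Replicate 1 was the array lowest in Cd36 in both populations. Without it, Cd36 was higher in lymph node than in thymus for PDPN- cells (1.14, adjusted p = 0.00675) and for PDPN+BP3- cells (0.94, adjusted p = 0.0483). With it the differences were 0.73 ± 0.30 and 0.64 ± 0.30 (adjusted p = 0.161 and 0.174). Leaving out the lowest array raises the lymph node mean by construction. No other single array left out brought either difference past the threshold, the adjusted p reaching 0.499 and 0.464.

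Fabp4, the binding protein abundant in fat cells, had signals of 8.98, 9.17 and 9.30 in lymph node PDPN- and 8.57, 8.23 and 8.39 in thymus PDPN- cells. Lymph node PDPN+BP3- cells had 5.62, 5.13 and 5.61, thymus PDPN+BP3- cells 4.15, 4.48 and 4.80, and lymph node PDPN+BP3+ cells 4.25, 3.40 and 3.04. The 6 PDPN- arrays again lay above the 9 others, and of the neighbours in the order only the lowest pair overlapped. Fabp4 fell by 3.92 ± 0.25 from PDPN- to PDPN+BP3- cells in thymus (adjusted p = 2.28e-09), and it fell by 3.70 ± 0.25 in lymph node (adjusted p = 7.25e-09). The fall from lymph node PDPN- to PDPN+BP3+ cells, by 5.59 ± 0.25, was the largest of any of the 10 genes in the 6 pairwise comparisons (adjusted p = 3.8e-11). PDPN+BP3+ cells were also below PDPN+BP3- cells of lymph node, at -1.89 ± 0.25 (adjusted p = 2.72e-05).

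Fabp7, the binding protein known from brain and radial glia, had an order of its own. It was highest in lymph node PDPN+BP3+ cells, at 7.80, 7.70 and 7.38, the population lowest in Fabp4, Cd36 and Pparg. Lymph node PDPN- cells followed with 5.97, 6.14 and 6.11 and thymus PDPN- cells with 5.20, 5.46 and 5.31. The PDPN+BP3- cells had 2.92, 3.35 and 2.82 in lymph node and 2.75, 2.82 and 3.03 in thymus, below the table median and overlapping each other. The 3 PDPN+BP3+ arrays did not overlap any other population.

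In lymph node Fabp7 was 4.60 ± 0.15 higher in PDPN+BP3+ than in PDPN+BP3- cells (adjusted p = 2.1e-12) and 1.55 ± 0.15 higher than in PDPN- cells (adjusted p = 4.63e-07). It fell by 3.04 ± 0.15 from PDPN- to PDPN+BP3- cells in lymph node (adjusted p = 1.44e-10) and by 2.46 ± 0.15 in thymus (adjusted p = 1.3e-09). Of 6 glial marker genes measured, 0 were above the table median in PDPN+BP3+ cells, where the list averaged 2.15 to 2.32 on the arrays. Sox10, a gene of this list, averaged 2.60 to 2.86 over the 5 populations. The glial marker S100b was highest in lymph node PDPN+BP3- cells, at 5.38. The part of these markers in the Fabp7 differences was not tested.

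Adipoq and Plin1, which mark mature fat cells as the genes of adiponectin and of a coat protein of lipid droplets, were below the table median on all 15 arrays. Adipoq ranged from 2.04 to 2.64 and passed the threshold in no comparison. Plin1 ranged from 2.30 to 3.07. Its arrays were lowest in thymus PDPN+BP3- cells, and it was called lower there than in thymus PDPN- cells (-0.37 ± 0.13, adjusted p = 0.0419) and than in lymph node PDPN+BP3- cells, which were 0.45 ± 0.13 higher (adjusted p = 0.0222). Both calls lie at signals that need not stand above background, and both ended under median centring (adjusted p = 0.139 and 0.145) and in the fit of the compared groups alone (0.0728 and 0.0745). The first also ended without thymus PDPN+BP3- replicate 3 (0.159) and thymus PDPN- replicates 2 (0.108) and 3 (0.126), and with replicate number as a block (0.0544). The second ended without thymus PDPN+BP3- replicate 3 (0.0868) and lymph node PDPN+BP3- replicates 1 (0.0709) and 3 (0.092).

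**Figure D2:**
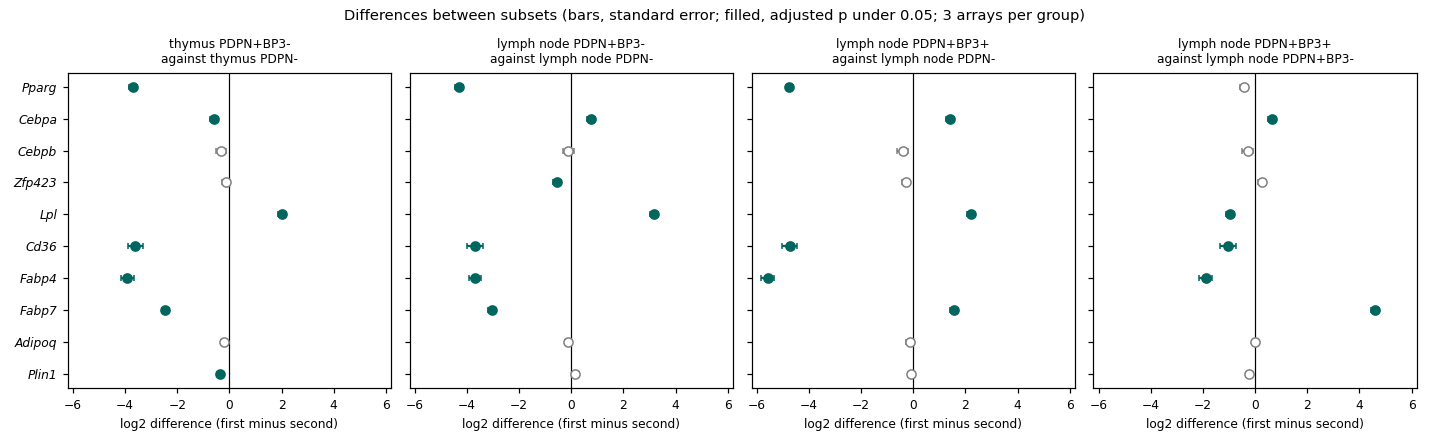
Log2 difference (first minus second population, horizontal axis) of the 10 genes in 4 comparisons between subsets, with bars for the standard error and filled points for an adjusted p under 0.05 (3 arrays per population). Pparg, Cd36 and Fabp4 lie far to the left and Lpl to the right in the 3 comparisons against PDPN- cells, while Cebpa changes side between thymus and lymph node and Fabp7 between PDPN+BP3- and PDPN+BP3+ cells.

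By comparison, 7 of the 10 genes passed the threshold between PDPN+BP3- and PDPN- cells of thymus, 1 higher and 6 lower, where 28.5% of all genes did (10.3% higher and 18.2% lower). Between the same subsets of lymph node 7 passed, 2 higher and 5 lower, against 23.1% of all genes (13.4% higher and 9.79% lower). Between PDPN+BP3+ and PDPN- cells 6 passed, 3 in each direction, against 27.3% (16.1% higher and 11.2% lower), and between PDPN+BP3+ and PDPN+BP3- cells 5 passed, 2 higher and 3 lower, against 16.2% (8.49% higher and 7.74% lower). The median difference of the 10 genes was -0.485, -0.333, -0.204 and -0.254 in these 4 comparisons, where that of all genes was -0.05, -0.013, 0 and 0.007. The lymph node comparisons share arrays, so their counts are given side by side only. The genes were chosen with results of these data known, and nothing particular to them is read from the counts.

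Against PDPN- cells, markers of pericytes moved with Pparg, Cd36 and Fabp4. All 9 pericyte markers measured were lower in each comparison of PDPN+ with PDPN- cells. Their mean per array was 9.36 to 10.06 in the PDPN- and 6.03 to 7.46 in the PDPN+ populations. Between PDPN+BP3+ and PDPN+BP3- cells of lymph node, 4 of the 9 were higher and 0 lower (median 0.45), where Fabp4 and Cd36 were lower. The Cd36 call there did not hold up to leaving out arrays. All 8 fibroblast markers were, like Lpl, higher in the PDPN+BP3- subset of each tissue than in its PDPN- subset. In PDPN+BP3+ against lymph node PDPN- cells, where Lpl was higher, 3 of these 8 were higher and 1 was lower (median 0.112). T lineage and epithelial markers were lower in PDPN+BP3- than in PDPN- cells of thymus in 3 of 8 and 3 of 7 cases. On thymus PDPN+BP3- replicates 1, 2 and 3 the T lineage list averaged 3.22, 4.45 and 4.57 and the epithelial list 3.61, 4.19 and 4.45, so that replicate 1, the array with the low median, was the lowest in both. Without it, 7 of the 10 genes passed between the thymus subsets, 1 higher and 6 lower, as with it. The part of these lists in the results was not tested. Of 12 myeloid markers measured, 1 or 2 were above the table median in any population. Adgre1 and Csf1r, macrophage genes of this list, averaged 1.79 to 1.98 and 2.46 to 2.60. Ptprc was the highest of the list in thymus PDPN+BP3- cells, at 4.2, and Cd68 in the 4 other populations. Cd68 averaged 6.73 in PDPN-, 5.75 in PDPN+BP3- and 5.18 in PDPN+BP3+ cells of lymph node. In thymus it averaged 5.55 in PDPN- and 3.84 in PDPN+BP3- cells. Of the 12, 3 were higher and 1 lower in PDPN+BP3- than in PDPN- cells of lymph node (median 0.167). Between these subsets of thymus, 0 were higher and 1 lower (median -0.095). The part of the myeloid list was not tested. The endothelial list averaged 3.11 to 3.59 in lymph node PDPN- and 3.32 to 3.45 in thymus PDPN- cells, below the table median, with Emcn highest at 5.04 and 7.72. This list was highest in lymph node PDPN+BP3- cells, at 3.92 to 4.24, with 7 of 12 markers above the table median. Of the 12, 8 were lower in PDPN+BP3+ than in these cells, as Fabp4 was and, in the call that did not hold up, Cd36. In PDPN+BP3- against PDPN- cells of lymph node, where Fabp4 and Cd36 were lower, 7 were higher and 0 lower (median 0.542). Between the same subsets of thymus 2 were higher and 3 lower. The part of the endothelial list in those differences was not tested.

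Between tissues, the PDPN+BP3- cells differed in 4 of the 10 genes, all higher in lymph node than in thymus, where 17.1% of all genes passed (11.8% higher and 5.29% lower). Cebpa differed most, at 1.80 ± 0.15 (adjusted p = 3.98e-07). Lpl was 0.78 ± 0.15 higher (adjusted p = 0.00187) and Fabp4 0.98 ± 0.25 higher (adjusted p = 0.0109), the fourth being Plin1. Without thymus PDPN+BP3- replicate 1, the array with the low median, Fabp4 missed the threshold (0.81, adjusted p = 0.0561). Under median centring 3 genes were higher and 1 was lower, and after quantile normalization 4 were higher and 1 was lower; the lower one was Zfp423 (-0.35 ± 0.14, adjusted p = 0.119 as deposited; 0.0148 and 0.00374 under these scalings). Without thymus PDPN+BP3- replicate 1, Zfp423 passed too (-0.50, adjusted p = 0.0238). Median centring moved the median difference of all genes from 0.04 to -0.085 here and from 0.057 to -0.072 in the interaction of tissue and subset.

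The PDPN- cells of the tissues differed in 2 of the 10 genes, Pparg and Fabp7, both higher in lymph node, where 9.61% of all genes passed (4.42% higher and 5.19% lower). Fabp7 was 0.75 ± 0.15 higher (adjusted p = 0.0029). Fabp4 was 0.75 ± 0.25 higher without passing (adjusted p = 0.0692), although its arrays did not overlap, and it passed under median centring (0.0342), quantile normalization (0.0328), the trended robust fit (0.0435), the filter on low values (0.0355) and the fit of the 2 groups alone (0.0073). Markers of T lineage cells moved with tissue, with 7 of 8 lower in lymph node than in thymus PDPN- cells and 6 of 8 lower in the PDPN+BP3- cells. So did epithelial markers, with 6 of 7 lower in both. In the PDPN+BP3- cells 7 of 9 pericyte markers were higher in lymph node and 2 lower (median 1.09), 6 of 12 endothelial markers were higher and 0 lower (median 0.637), and 1 of 8 fibroblast markers was higher and 2 were lower. In the PDPN- cells 6 of 8 fibroblast markers were higher in lymph node and 0 lower (median 1.65), and 4 of 9 pericyte markers were lower and 0 higher. The part of these markers in the differences between tissues was not tested.

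**Figure D3:**
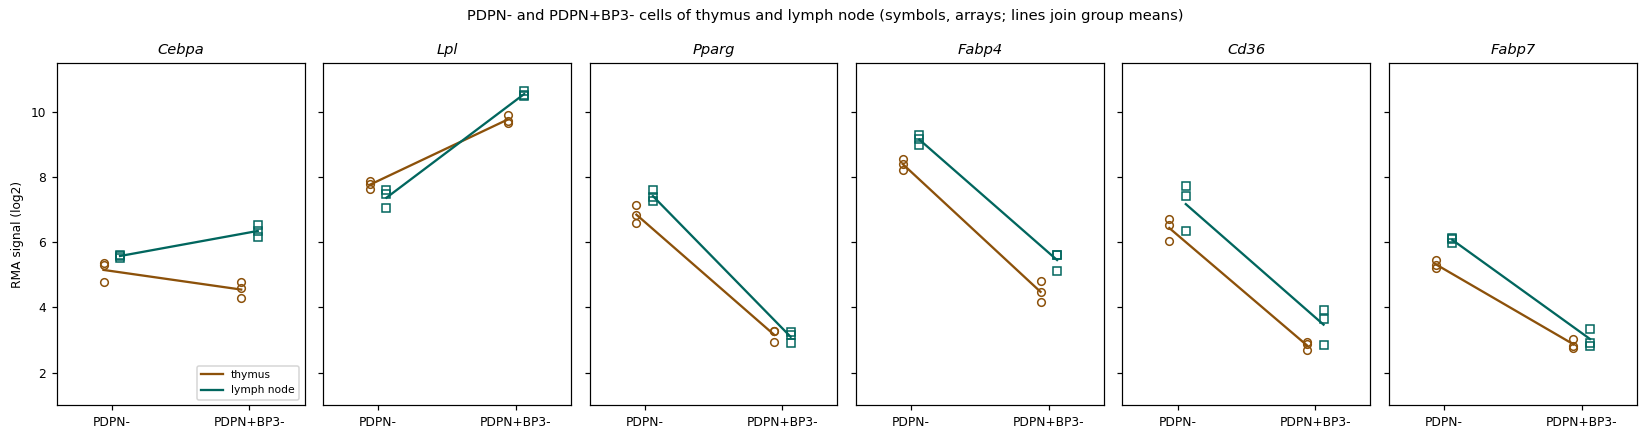
RMA signal (log2, vertical axis) of 6 genes in PDPN- and PDPN+BP3- cells, with 1 symbol per array (circles thymus, squares lymph node) and lines joining the population means. The lines of Cebpa slope in opposite directions and those of Lpl cross, while the lines of the other 4 genes fall in both tissues.

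The interaction of tissue and subset asks whether PDPN+BP3- and PDPN- cells differed by the same amount in lymph node and thymus. It passed for 2 of the 10 genes, Cebpa and Lpl, both with a higher value in lymph node, where 12.7% of all genes passed (8.67% higher and 4.05% lower). For Cebpa the interaction was 1.37 ± 0.22 (adjusted p = 0.00044), with a change of sign between tissues. For Lpl it was 1.18 ± 0.22 (adjusted p = 0.00163), with a rise in both tissues that was larger in lymph node. Pparg (-0.63 ± 0.21, adjusted p = 0.0606), Fabp7 (-0.59 ± 0.21, adjusted p = 0.0807) and Plin1 (0.51 ± 0.18, adjusted p = 0.0779) missed the threshold as deposited. Leaving out 1 array brought Pparg past it (thymus PDPN+BP3- replicate 1, adjusted p = 0.0282; thymus PDPN- replicate 1, 0.0244; lymph node PDPN- replicate 1, 0.0449), as it did Fabp7 (lymph node PDPN+BP3- replicate 2, 0.0222) and Plin1 (lymph node PDPN- replicate 2, 0.0335).

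The split of the interaction depended on the scaling. Under median centring 2 genes were higher and 2 lower, with Pparg (-0.76, adjusted p = 0.016) and Fabp7 (-0.72, adjusted p = 0.0245) added. After quantile normalization 3 were higher and 2 lower, with Pparg (-0.63, adjusted p = 0.0379), Zfp423 (-0.68, adjusted p = 0.0164) and Plin1 (0.56, adjusted p = 0.029) added. Cebpa and Lpl passed under every alternative run. Pericyte markers also had a higher interaction in 8 of 9 cases, endothelial markers in 6 of 12, and fibroblast markers a lower one in 7 of 8; their part was not tested.

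Genes of the same pathways were grouped in 7 lists, whose counts stand beside the shares of all genes that passed: 10.3% higher and 18.2% lower between PDPN+BP3- and PDPN- cells of thymus, 13.4% and 9.79% between those of lymph node, and 16.1% and 11.2% between PDPN+BP3+ and PDPN- cells. Nothing particular to a list is read from them. Of 18 other adipogenic regulators, 3 were higher and 7 lower in PDPN+BP3- than in PDPN- cells of thymus, 6 higher and 4 lower in lymph node, and 4 higher and 5 lower in PDPN+BP3+ than in PDPN- cells. Klf5, a Krüppel-like factor that acts on Pparg during adipogenesis, averaged 7.96 in lymph node PDPN+BP3- and 6.55 in thymus PDPN+BP3- cells and 4.62 to 4.73 elsewhere, a rise over PDPN- cells of 3.31 ± 0.13 in lymph node (adjusted p = 1e-11) and 1.82 ± 0.13 in thymus (adjusted p = 1.07e-08). Klf4 rose likewise, by 2.19 ± 0.13 in thymus and 1.10 ± 0.13 in lymph node (adjusted p = 1.45e-09 and 8.63e-06). Ebf2, an early B cell factor of brown and beige fat precursors, had a mean of 2.67 in PDPN+BP3+ cells, where the 4 others had 6.18 to 8.01; the fall from lymph node PDPN- cells was by 4.70 ± 0.14 (adjusted p = 3.07e-13). Nr1h3, the gene of the sterol receptor LXRα, fell by 1.70 ± 0.20 from lymph node PDPN- to PDPN+BP3- cells (adjusted p = 6.02e-06) and by 2.64 ± 0.20 to PDPN+BP3+ cells (adjusted p = 2.92e-08). In thymus the Nr1h3 difference of -0.56 ± 0.20 (adjusted p = 0.0449) ended under both scalings (0.0546 and 0.138), with replicate number as a block (0.0546) and with each thymus array left out in turn except PDPN- replicate 3 (0.0661 to 0.209).

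Of 11 inhibitors of adipogenesis measured, 3 were higher and 3 lower in PDPN+BP3- than in PDPN- cells of thymus (5 and 3 without thymus PDPN+BP3- replicate 1), where 28.5% of all genes passed. In lymph node, where 23.1% passed, 1 was higher and 0 were lower, a count that became 1 higher and 4 lower under median centring and 1 higher and 3 lower after quantile normalization, and 1 higher and 1 lower without lymph node PDPN- replicate 1 or 2. Between PDPN+BP3+ and PDPN- cells 1 was higher and 6 were lower. Dlk1, a preadipocyte surface protein that inhibits adipogenesis, was highest in the PDPN- cells, at 8.62 in lymph node and 8.15 in thymus. It fell by 2.10 ± 0.27 to 6.05 in thymus PDPN+BP3- cells (adjusted p = 1.25e-05). In lymph node PDPN+BP3- cells Dlk1 averaged 7.99, and the difference of -0.63 ± 0.27 missed the threshold (adjusted p = 0.108). Its interaction was 1.46 ± 0.38 (adjusted p = 0.017), a call that ended without lymph node PDPN+BP3- replicate 2 (0.0528). Zfp521, a zinc finger factor that opposes Zfp423 and Ebf factors, averaged 4.51 in PDPN+BP3+ cells against 6.03 to 6.46 elsewhere and was lower there than in lymph node PDPN- cells by -1.52 ± 0.20 (adjusted p = 2.12e-05). Nr2f2 fell by 1.58 ± 0.17 from PDPN- to PDPN+BP3- cells in thymus (adjusted p = 1.27e-06), and Klf3 was 0.94 ± 0.13 higher there (adjusted p = 2.39e-05) and 1.0 ± 0.13 higher in lymph node (adjusted p = 1.45e-05).

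**Figure D4:**
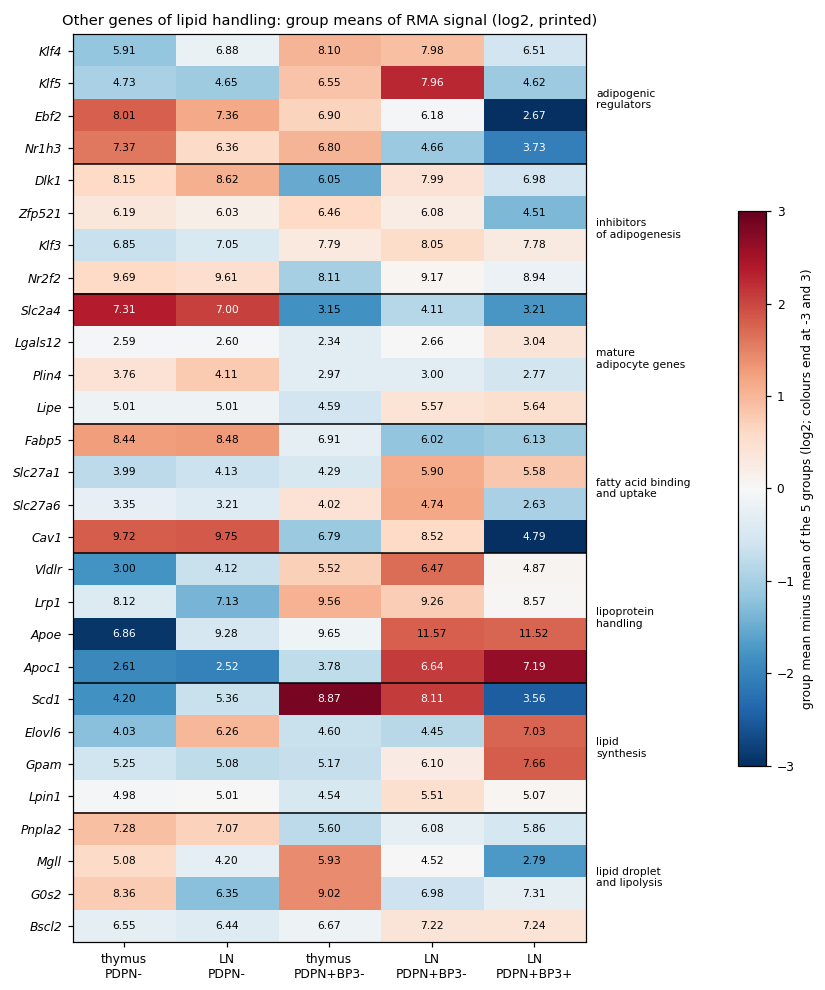
Group means of RMA signal (log2, printed in the cells) for 28 genes of 7 lists in the 5 populations, coloured by the difference from the mean of the 5 populations (colours end at -3 and 3). Slc2a4, Fabp5 and Cav1 are highest in the PDPN- columns, Scd1 in the PDPN+BP3- columns, and Apoe and Apoc1 in both lymph node PDPN+ columns.

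Of 13 mature adipocyte genes measured beside Adipoq and Plin1, 0 were higher and 2 lower in PDPN+BP3- than in PDPN- cells of thymus, and 1 was higher and 2 were lower in lymph node, no more than the 28.5% and 23.1% of all genes that passed there. In both tissues the lower genes were Slc2a4 and Plin4. Slc2a4, the insulin-responsive glucose transporter of fat and muscle, averaged 7.31 in thymus and 7.0 in lymph node PDPN- cells and 3.15 to 4.11 in the PDPN+ populations. It fell by 4.17 ± 0.27 in thymus (adjusted p = 2.72e-09) and by 2.90 ± 0.27 in lymph node (adjusted p = 3.46e-07). Plin4, a lipid droplet coat protein, averaged 4.11 and 3.76 in the PDPN- cells of lymph node and thymus and 2.77 to 3.00 in the PDPN+ populations. It fell by 0.79 ± 0.15 in thymus (adjusted p = 0.000581), while it fell by 1.11 ± 0.15 in lymph node (adjusted p = 2.26e-05). All these means but that of lymph node PDPN- cells lie below the table median and need not stand above background. Lipe, hormone-sensitive lipase, averaged 5.57 in PDPN+BP3- cells from lymph node, with 5.01 in the PDPN- subset of either tissue; its difference in lymph node of 0.56 ± 0.17 (adjusted p = 0.0259) ended after quantile normalization (0.0901) and without lymph node PDPN- replicate 1 (0.0706) or 2 (0.0894) or PDPN+BP3- replicate 1 (0.116) or 2 (0.0585). Lgals12, a galectin of fat cells, averaged 2.34 to 3.04 throughout, below the table median.

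Among 16 other genes of fatty acid binding and uptake, 2 were higher and 3 lower in PDPN+BP3- than in PDPN- cells of thymus (28.5% of all genes passed), and 3 were higher and 3 lower in lymph node (23.1% passed). Fabp5, a further binding protein, had PDPN- means of 8.44 in thymus and 8.48 in lymph node. It fell by 1.53 ± 0.23 in thymus (adjusted p = 6.94e-05), and it fell by 2.47 ± 0.23 in lymph node (adjusted p = 3.94e-07). Cav1, the caveolin of lipid-rich surface pits, averaged 9.72 and 9.75 in PDPN- cells and 4.79 in PDPN+BP3+ cells, a fall from lymph node PDPN- cells by 4.96 ± 0.19 (adjusted p = 6.55e-12). The transporter gene Slc27a1 was higher in both PDPN+ populations of lymph node than in PDPN- cells, by 1.77 ± 0.17 in PDPN+BP3- and 1.45 ± 0.17 in PDPN+BP3+ cells (adjusted p = 5.56e-07 and 4.95e-06). Slc27a6, of the same transporter family, differed from lymph node PDPN- cells by 1.52 ± 0.17 in PDPN+BP3- cells (adjusted p = 2.95e-06) and by -0.59 ± 0.17 in PDPN+BP3+ cells (adjusted p = 0.0144).

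Of 14 genes of lipoprotein handling measured, the pathway of Lpl, 7 were higher and 1 lower in PDPN+BP3- than in PDPN- cells of thymus, where 10.3% of all genes were higher and 18.2% lower, with a median difference of 0.407 against -0.05 over all genes. In lymph node 9 were higher and 2 lower (median 1.18 against -0.013; 13.4% and 9.79% of all genes), and 10 were higher and 2 lower in PDPN+BP3+ than in PDPN- cells (median 0.73 against 0; 16.1% and 11.2% of all genes). Apoe, the apolipoprotein that binds lipoprotein receptors, had means of 11.57 in the PDPN+BP3-, 11.52 in the PDPN+BP3+ and 9.28 in the PDPN- subset of lymph node, and of 9.65 in the PDPN+BP3- and 6.86 in the PDPN- subset of thymus. Its difference between PDPN+BP3- and PDPN- cells was 2.79 ± 0.20 in thymus (adjusted p = 1.12e-08) and 2.29 ± 0.20 in lymph node (adjusted p = 1.82e-07). Apoc1, the gene of a small apolipoprotein, rose by 4.12 ± 0.23 and 4.67 ± 0.23 in PDPN+BP3- and PDPN+BP3+ cells of lymph node (adjusted p = 7.79e-10 and 1.31e-10) and by 1.17 ± 0.23 in thymus (adjusted p = 0.000877), an interaction of 2.94 ± 0.32 (adjusted p = 1.28e-05). The receptor genes Vldlr and Lrp1 were higher by 2.52 ± 0.15 and 1.44 ± 0.19 in thymus and by 2.36 ± 0.15 and 2.13 ± 0.19 in lymph node (adjusted p = 1.29e-09, 2.14e-05, 4.64e-09 and 2.96e-07).

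Of 12 genes of lipid synthesis, 3 were higher and 1 lower in PDPN+BP3- than in PDPN- cells of thymus (2 higher and 0 lower in the fit of these groups alone), against 28.5% of all genes, and 5 higher and 1 lower in lymph node, against 23.1%. Scd1, the desaturase that makes oleic acid, averaged 8.87 in the thymus and 8.11 in the lymph node subset that was PDPN+BP3-, 5.36 and 4.20 in the PDPN- cells of lymph node and thymus, and 3.56 in PDPN+BP3+ cells. It rose from PDPN- to PDPN+BP3- cells by 4.67 ± 0.21 in thymus (adjusted p = 3.8e-11) and 2.75 ± 0.21 in lymph node (adjusted p = 3.5e-08), and it was lower in PDPN+BP3+ than in PDPN+BP3- cells, at -4.56 ± 0.21 (adjusted p = 1.52e-10). The elongase Elovl6 and the acyltransferase Gpam went the other way between the PDPN+ populations of lymph node. PDPN+BP3+ cells were above PDPN+BP3- cells by 2.59 ± 0.17 and 1.56 ± 0.16 (adjusted p = 8.06e-09 and 1.46e-06). From lymph node PDPN- to PDPN+BP3- cells Gpam rose, as Scd1 did, by 1.01 ± 0.16 (adjusted p = 0.000108). Elovl6 differed there by -1.81 ± 0.17 (adjusted p = 3.66e-07). Lpin1, a phosphatidate phosphatase, averaged 4.54 to 5.51 in the 5 populations and rose in lymph node from PDPN- to PDPN+BP3- cells by 0.50 ± 0.12 (adjusted p = 0.00643).

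Of 11 genes of lipid droplets and lipolysis measured, 2 were higher and 1 lower in PDPN+BP3- than in PDPN- cells of thymus, a count that became 4 higher and 1 lower after quantile normalization, and 2 were higher and 3 lower in lymph node; of all genes 28.5% and 23.1% passed. Pnpla2, the first lipase of triglyceride breakdown, was highest in the PDPN- cells, at 7.28 and 7.07, and fell by 1.69 ± 0.16 in thymus and 0.98 ± 0.16 in lymph node (adjusted p = 3.06e-07 and 0.000154). G0s2, which encodes an inhibitor of that lipase, differed by tissue, with 9.02 and 8.36 in the thymus and 6.35 to 7.31 in the lymph node populations; it was lower in lymph node by -2.01 ± 0.24 in PDPN- and -2.04 ± 0.24 in PDPN+BP3- cells (adjusted p = 2.43e-05 and 1.09e-05). Mgll, the last lipase of that chain, averaged 2.79 in PDPN+BP3+ cells and was lower there than in lymph node PDPN- cells, at -1.41 ± 0.17 (adjusted p = 5.57e-06). Bscl2, the seipin gene, was higher than in lymph node PDPN- cells by 0.78 ± 0.11 in PDPN+BP3- cells (adjusted p = 6.55e-05) and by 0.81 ± 0.11 in PDPN+BP3+ cells (adjusted p = 4.46e-05).

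For the 6 genes whose population means spanned at least 2, the 3 genes most like each were taken by Pearson correlation over the 15 arrays. These are descriptions, since the 15 arrays fall into 5 populations that share sort, tissue and pool size. Nearest to Pparg were Myom1 (0.992), a sarcomere protein, Cysltr2 (0.991), a leukotriene receptor, and Ednrb (0.991), an endothelin receptor; Ednrb averaged 8.02 and 8.35 in the PDPN- and 3.11 to 3.26 in the PDPN+ populations. Nearest to Fabp4 were Npy1r (0.987), a neuropeptide Y receptor, Mlf1 (0.982) and the tetraspanin gene Tspan12 (0.982). Tspan12 (0.982) was among the nearest to Cd36 as well, with Mamdc2 (0.989) and the angiotensinogen gene Agt (0.981).

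The other 3 genes had neighbours of their own. Nearest to Lpl were Osr1 (0.985), a transcription factor of mesenchyme, Cp (0.981), the ceruloplasmin gene, and Arsb (0.981), a lysosomal sulfatase. Cebpa was most like Cdc42ep3 (0.976), Slc2a1 (0.973), the basal glucose transporter, and Kctd1 (0.970). Slc2a1 averaged 8.55 in PDPN+BP3+ and 7.26 in PDPN+BP3- cells of lymph node and 5.11 in thymus PDPN+BP3- cells. Fabp7 was most like Rragd (0.974), a GTPase of nutrient sensing, Eif2b2 (0.963) and Cenpe (0.959), with lower values than the nearest genes of Pparg or Fabp4.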

How the data were processed

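Gene expression was measured on Mouse Gene 1.1 ST arrays (Affymetrix) after amplification of total RNA with the Ovation Pico WTA System V2, per the labels' protocols. The deposited values are RMA signals made by the authors with the Affymetrix Expression Console, per the submitters' processing notes, their versions being not given in the sources used here. No log base is named, and log2 was inferred from the range of the deposited values, 1.07 to 12.07. Of 24758 rows, 20844 had 1 gene symbol in the platform annotation, and the row of highest mean was kept for each of 18718 genes, with no filter on low values. Of the others, 1735 rows had several symbols and 2179 had none there.

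limma 3.58.1 under R 4.3.3 was used, with 1 mean per population over 15 arrays, empirical Bayes without trend and Benjamini-Hochberg adjustment over all genes of a comparison at 0.05. The script was tested on simulated data. P-values measure the spread between 3 pools a population, and the number of arrays limits precision. Of each pathway list the text names up to 4 genes of smallest adjusted p over the comparisons, and of each gene spanning 2 or more the 3 most like it; predicted genes, small RNAs, segments of antigen receptors and receptors of smell or pheromones were left out there. The 10 genes, the lists and the comparisons were chosen with earlier results of these data known. Markers of red cells and platelets were checked too: 0 or 1 of 6 measured were above the table median in any population.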

Additional observations from a re-analysis of the deposited data

Results flagged for a closer look

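The effect of subset on 2 of the 10 genes differed between lymph node and thymus by the interaction test itself. For Cebpa the interaction was 1.37 ± 0.22 (limma, adjusted p = 0.00044): PDPN+BP3- exceeded PDPN- cells on all arrays in lymph node and lay below them on all arrays in thymus. For Lpl it was 1.18 ± 0.22 (adjusted p = 0.00163), with PDPN+BP3- above PDPN- cells on all arrays of both tissues. With each array left out in turn the adjusted p went from 8.98e-05 to 0.00198 for Cebpa and from 0.000961 to 0.00652 for Lpl. Populations of 3 arrays are too small for a check of single outlying arrays.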

How the results depend on the processing

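Of 33 called differences or interactions of the 10 genes, 27 kept their call in each alternative run and 0 changed direction; of 37 not called, 13 passed in some alternative. Lymph node against thymus PDPN- cells gave 2 called genes as deposited, 4 after quantile normalization and 1 to 3 with an array left out. The interaction gave 2 genes, 4 under median centring and 5 after quantile normalization. The cause was not tested. Leaving out an array gave 6 to 7 calls for thymus and for lymph node PDPN+BP3- against PDPN- cells, 4 to 5 for PDPN+BP3+ against PDPN+BP3- cells and 3 to 4 for PDPN+BP3- cells between tissues; PDPN+BP3+ against PDPN- cells stayed at 6, and the interaction gave 2 to 3.

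No difference that changed sign had been called as deposited or passed in the setting that turned it. Zfp423 between the thymus subsets was 0.041 after quantile normalization and -0.293 to 0.017 with an array left out. In the interaction Adipoq was -0.045 under median centring and -0.047 to 0.198 with an array left out, Cebpb was -0.03 after quantile normalization and Cd36 was -0.51 to 0.21 with an array left out. With an array left out, Cebpb between lymph node PDPN+BP3- and PDPN- cells was -0.307 to 0.003, Plin1 between PDPN+BP3+ and PDPN- cells -0.138 to 0.042, and Adipoq between PDPN+BP3+ and PDPN+BP3- cells -0.033 to 0.012. Between tissues, Pparg and Adipoq in PDPN+BP3- cells were -0.178 to 0.035 and -0.122 to 0.023, and Plin1 and Zfp423 in PDPN- cells -0.178 to 0.002 and -0.043 to 0.162. The order of population means changed under scaling for Cebpb, Adipoq and Zfp423 and for none of the other genes.

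The labels do not say whether a replicate number marks 1 experiment across populations, so a pairing of some arrays cannot be told. The arrays were not treated as paired because not every pair deviated together: 6 of 30 same-numbered pairs had a correlation of deviations above 0.1 (range -0.174 to 0.288; 0.288, -0.03 and 0.18 for lymph node PDPN- with PDPN+BP3- cells), and 6 of 15 arrays correlated best with their own number. A replicate block, which joined the numbers across both tissues, changed the all-gene count for the thymus subsets from 5337 to 5313 and of the member calls only Plin1 there (adjusted p = 0.0544) and Cebpb between the PDPN+BP3- cells (0.0201). A block within each tissue was not run. The alternatives for the pathway lists were chosen after seeing the data.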
